A study of Rattus norvegicus with 10 samples.

Results

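The whey of rat milk was compared between d 16 postpartum, late in lactation, and d 2 postpartum, when the gland still makes colostrum. Whey is the fluid part of milk, freed by centrifugation of its fat, cells and casein, and it holds RNA outside of cells. The comparison took 6 of the 10 arrays of the series, chosen by their titles: 3 arrays of d 2 whey and 3 of d 16 whey. Dams of the inbred strain F344/N, with no treatment that differed between days, were numbered 1 to 3 on both days, so each array of one day has a partner from the same animal. Milk was let down with oxytocin before collection, and the whey was also filtered. Each array received 100 ng of total RNA, so all values below are amounts relative to the RNA of the sample and not amounts per volume of whey. Another 3 arrays held d 9 whey of the same dams, and 1 held a pool of the dams' serum from d 21, which was used in the normalization and in no comparison.

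Milk is made by the luminal cells of the mammary alveoli, which secrete casein, whey protein, lactose and fat globules under the hormone prolactin and its signal transducer STAT5. Around birth these cells are still dividing and their tight junctions are closing, and the first milk is rich in immune proteins. Later in lactation the gland secretes far more milk of a steadier composition. Both early and late milk hold leukocytes, chiefly macrophages, neutrophils and lymphocytes, alongside shed epithelial cells.

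The arrays carried 41012 probes of 60 bases, and values are log2 of the background-subtracted signal after quantile normalization, so that 1 unit is a doubling. A probe was tested when it was well above the local background with a signal over 20 on at least 1 of the 9 whey arrays, which held for 16845 probes. Before normalization the 75th percentile of the signal lay between 12.5 and 28.0 on d 2 and between 21.5 and 40.6 on d 16, with dam 1 lowest on both days, and 8131 to 11450 probes were detected per array on d 2 against 10386 to 12790 on d 16. All 3 arrays of d 16 lay on 1 slide that was scanned on another day than those of d 2, so day, slide and scan cannot be told apart. Luminal markers were present on both days (of 25 tested markers 22 were well above background on at least 1 array of d 2, and 22 on d 16). Of the 18 liver markers on the array 0 were detected in whey, and of the 16 B and plasma cell markers on the array 1 was.

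From d 2 to d 16, 4800 probes passed the test (limma, Benjamini-Hochberg adjusted p under 0.05). Of the probes tested 2704 were higher on d 16 (16.1%) and 2096 lower (12.4%), and the median change over all of them was 0.04. The change was over 2-fold for 2276 probes. Of the 4800 called probes 4796 moved the same way in all 3 dams, which the test favours, as it used these same values. Among probes well above background on all 6 arrays 1566 were higher and 1556 lower. When the arrays were scaled to the 8 spike-in control probes in place of quantile normalization, the median of all probes lay 0.60 above 0 and 786 probes passed, 609 higher and 177 lower, so the changes given here are relative to the bulk of the whey RNA.

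**Figure D1:**
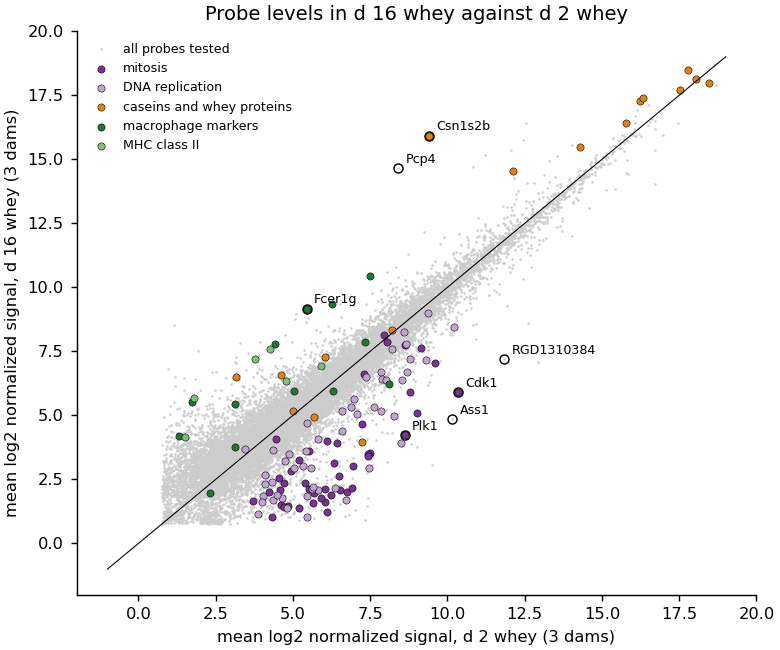
Each point is a probe, with its mean log2 normalized signal over 3 dams on d 2 (x axis) and on d 16 (y axis). Grey points are all 16845 probes tested, coloured points are the tested members of 5 gene lists, rings mark 7 named genes, and the line marks equal levels. Mitosis and DNA replication genes lie mostly below the line, and macrophage and MHC class II genes mostly above it.

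Among called probes that have a gene symbol, were well above background on all 6 arrays and did not overlap between days, the largest rise and the second largest fall came from the casein gene cluster. Csn1s2b, which encodes a calcium-sensitive casein of the alpha-S2 type, had log2 signals of 9.24, 9.30 and 9.66 on d 2 and of 15.87, 15.70 and 16.22 on d 16 in dams 1, 2 and 3. The days were far apart in every dam, and the rise of 6.53 ± 0.20 (SE) is 92.6-fold (limma, adjusted p = 2.30e-05). On d 9 it stood between them at 13.55, 13.78 and 13.24, and the later step from d 9 to d 16 passed on its own (2.41, adjusted p = 0.00566). The probe that measured it is shown with the probe of Ass1, which had the largest fall among those probes. Both are written 5′ to 3′ as the array files give them, on the minus and on the plus strand of build rn4 respectively, and their 60 bases are spread over 3533 and 1353 bases of the genome, so neither is 1 unbroken stretch of the genome.
Csn1s2b, chr14:21782246-21785778: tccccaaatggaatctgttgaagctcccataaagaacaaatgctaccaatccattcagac
Ass1, chr3:10620727-10622079: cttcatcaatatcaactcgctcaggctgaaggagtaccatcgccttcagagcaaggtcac

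A neighbour of Csn1s2b, though not the nearest gene tested, went the other way. RGD1310384, a predicted gene whose probe lies 26306 bases from that of Csn1s2b on chromosome 14 of rn4, had 12.23, 11.87 and 11.41 on d 2 and 6.89, 7.91 and 6.80 on d 16. It fell by 4.64 (24.9-fold, adjusted p = 0.000288), and by d 9 it was already at 7.45, 7.95 and 8.06. The other casein genes of the cluster moved little or not at all. Csn2, beta-casein, rose from 16.34, 16.27 and 16.09 to 17.09, 17.37 and 17.37 (1.04, adjusted p = 0.00581). Csn3, kappa-casein, which caps the casein micelle, was 0.64 higher with an adjusted p of 0.0498, and of 0.0712 with the dam as a block. That call was also lost without any 1 of 7 of the 9 arrays (d 2 dams 1 to 3, d 9 dam 2 and d 16 dams 1 to 3), at adjusted p up to 0.141. Csn1s1 (0.11, adjusted p = 0.820) and Csn1s2a (0.19, adjusted p = 0.586) did not pass. The Csn1s2a probe lies 19530 bases from that of Csn1s2b, nearer than the probe of RGD1310384. Csn1s1 is among the brightest probes of each array and has the same value, 18.04, in all 3 dams on d 2, because quantile normalization gives equal ranks equal values.

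Of 17 tested caseins and whey proteins 10 were higher (58.8%) and 1 lower (5.88%), against 16.1% and 12.4% of all probes. Their median change was 0.73, and 15 of the 17 were well above background on all 6 arrays, with 8 higher and 1 lower. Ltf, Wfdc18 and Spp1 were on the array but not detected. Lalba, alpha-lactalbumin, the whey protein that turns galactosyltransferase to lactose, rose from 16.47, 16.43 and 16.05 to 17.28, 17.59 and 17.28 (adjusted p = 0.00764). Wap, whey acidic protein, had 17.77 in all 3 dams on d 2 and 18.50 in all 3 on d 16, a step of 0.73 between 2 ranks near the top of the arrays, whose spread of 0 on each day is a product of the ranks. Its adjusted p of 0.0164 became 0.0547 without d 16 dam 3. Wfdc3, a relative of Wap, rose 5.27-fold (adjusted p = 0.000227). Pigr, the receptor that carries IgA across the epithelium into milk, rose from 4.48, 5.05 and 4.36 to 6.62, 6.27 and 6.88 (3.89-fold, adjusted p = 0.00199), though its probe was well above background on only 2 of the 3 d 2 arrays. Lyz2, lysozyme, was not well above background on any d 2 array and at least 8.23-fold higher on d 16 (adjusted p = 0.00082). Clu, clusterin, was the 1 member that fell, from 7.64, 7.35 and 6.75 to 4.09, 4.15 and 3.61 (9.83-fold, adjusted p = 0.000461).

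Transferrin, Tf, the iron carrier of milk, was 14.71, 14.46 and 13.70 on d 2 and 15.63, 15.14 and 15.66 on d 16, a rise of 1.19 (adjusted p = 0.0183). Between these days it was far lower, at 9.92, 9.89 and 10.29 on d 9. The call from d 2 to d 16 was lost without d 16 dam 1 or d 16 dam 3 (adjusted p up to 0.0658). In the plot of levels by day it is the casein and whey protein line that dips furthest on d 9.

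Cell division genes were lower on d 16, and their list had the lowest median change of the 42 lists described. Of 45 tested mitosis genes 42 were lower on d 16 and 0 higher, with a median change of -3.27. Of 50 tested DNA replication genes 44 were lower and 0 higher, with a median of -2.05. These are 93.3% and 88% lower, against 12.4% of all probes. A further 19 mitosis genes and 18 replication genes of the lists were not tested or not on the array. Many members were bright on d 2 alone and entered the test through that day. Among those well above background on all 6 arrays, 10 of 13 mitosis genes and 21 of 25 replication genes were lower. With spike-in scaling 27 mitosis genes and 14 replication genes were lower and 0 of either higher.

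Cdk1, the kinase that drives entry into mitosis, had 10.89, 10.43 and 9.71 on d 2, 8.52, 9.06 and 8.66 on d 9, and 5.55, 6.51 and 5.69 on d 16. The lowest d 2 value was above the highest d 16 value by over 3 units, and it fell by 4.42 (21.5-fold, adjusted p = 0.000386). Plk1, another mitotic kinase, went from 8.62 ± 0.55 to 4.23 ± 0.74 (mean ± SD, n = 3 dams, 21.0-fold, adjusted p = 0.000572). Spc24, a part of the kinetochore, fell 15.0-fold. All 3 passed also from d 9 to d 16 (adjusted p = 0.0182, 0.0281 and 0.00848), as did 23 of the 45 mitosis genes, all lower, against 3 of the 50 replication genes and 1.42% of all probes. Ccnb1, the cyclin partner of Cdk1, was at least 13.1-fold lower on d 16, where it was not well above background on any array. Birc5 (survivin) was at least 10.1-fold lower, Ttk, a checkpoint kinase, at least 14.8-fold and Bub1b at least 9.51-fold, each not well above background on any d 16 array.

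The replication genes that fell act at several steps, from licensing of origins to the supply of histones. Chaf1b, which loads histones on new DNA, fell from 9.05, 8.55 and 7.90 to 3.96, 3.67 and 4.16 (23.8-fold, adjusted p = 0.000163). Cdc45, part of the replicative helicase, fell 9.85-fold (adjusted p = 0.000461), and Pcna, the sliding clamp of the polymerases, fell from 9.87, 9.28 and 8.81 to 6.86, 7.52 and 7.17 (4.4-fold, adjusted p = 0.00238). Mcm6, another helicase subunit, was at least 14.7-fold lower, Cdt1, a licensing factor, at least 6.36-fold and Rrm2, the small subunit of ribonucleotide reductase, at least 11.1-fold, where an "at least" fold stands for a probe not well above background on any array of the dimmer day. Probes of 3 replication-linked histones, Hist2h3c2, Hist1h4b and H3f4, had changes of -3.08, -3.05 and -3.04, and as histone genes share long stretches of sequence these probes may read several copies. The other probe of Hist2h3c2 fell by 1.24 and those of Hist1h4b by 1.92 and 0.44. Of 21 tested genes of cell cycle inhibition and quiescence 4 were higher and 3 lower, near the shares of all probes. Ccnd1, cyclin D1, which acts before replication starts, fell by 2.24 (adjusted p = 0.00157). The probe read for Cdkn1b, an inhibitor of cyclin-dependent kinases, fell by 0.70 (adjusted p = 0.029), a call lost without any 1 of the arrays of d 2 and d 16 (adjusted p up to 0.0927). A second probe of Cdkn1b, like the first above background on all 9 whey arrays, changed by 0.03 and did not pass (adjusted p = 0.862). Btg1, an inhibitor of proliferation, rose from 9.60, 9.46 and 9.76 to 11.12, 10.82 and 11.17 (1.43, adjusted p = 0.0043).

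**Figure D2:**
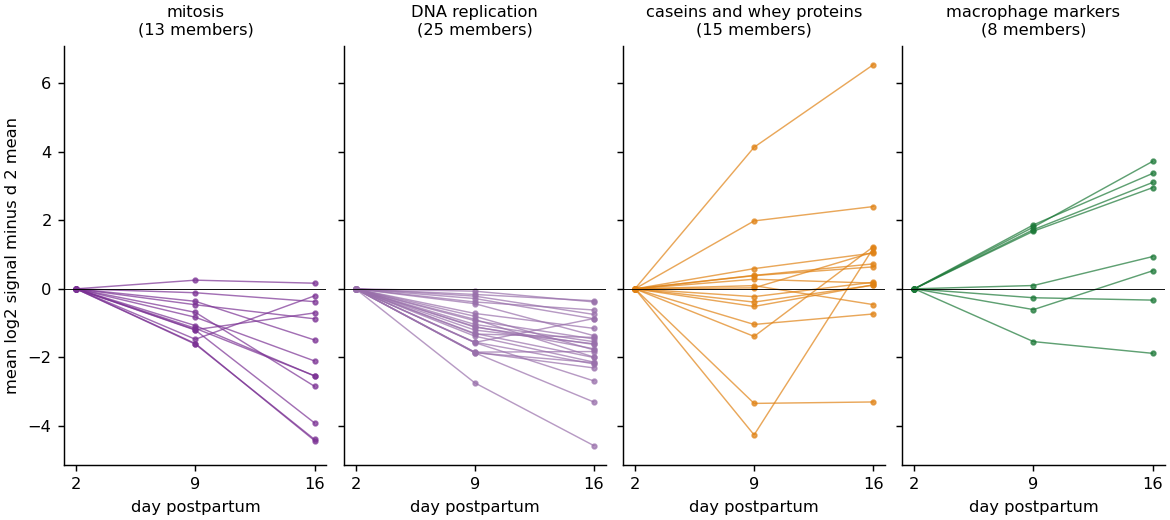
Mean log2 signal over 3 dams on d 2, d 9 and d 16, drawn as the difference from the d 2 mean (y axis) against the day postpartum (x axis), for members of 4 gene lists measured above background throughout d 2 and d 16. Each line is a gene. The steepest mitosis lines, Cdk1 and Plk1, end more than 4 units below d 2, and the line of the third panel that dips furthest on d 9 and returns is Tf.

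Promoter sequences of these groups were read from RefSeq (assembly GRCr8, the 250 bases before the transcription start). The hexamer TTTGAA, the core of the cell cycle genes homology region, stood on either strand in 21 of 36 matched mitosis promoters (58.3%), against 10.5% of the 6679 genes tested in whey that had a promoter and 16% of all 27457 promoters. In replication genes it stood in 4 of 41 (9.76%). CCAAT was in 80.6% of the mitosis promoters, 43.9% of the replication promoters and 36.9% of the genes tested. Among the mitosis genes lower on d 16, TTTGAA stood in 18 of 33 promoters (54.5%) and CCAAT in 26 (78.8%). These shares are no higher than those of the whole mitosis list, and a link of the motifs to the fall was not tested. The Cdk1 promoter on the plus strand of GRCr8 is shown because it holds both, with every TTTGAA and CCAAT (on the other strand read as ATTGG) in capitals. The motifs were searched on both strands and do not overlap here. A match is a description of the letters and shows no binding.
Cdk1 promoter, chr20:19265043-19265292: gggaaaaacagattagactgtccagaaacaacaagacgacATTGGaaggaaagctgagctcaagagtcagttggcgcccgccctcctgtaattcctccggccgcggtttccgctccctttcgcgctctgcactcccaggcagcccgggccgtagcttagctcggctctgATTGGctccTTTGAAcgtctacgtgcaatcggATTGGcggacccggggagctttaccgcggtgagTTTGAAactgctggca

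The palindrome TTCNNNGAA, which STAT proteins are known to read, stood in 5 of 15 casein and whey protein promoters (33.3%), in 6.11% of the genes tested and in 0 of the 36 mitosis promoters. Csn1s2b and Csn2 both hold it about as far from the start, from base -100 to -92 and from base -97 to -89, while Csn1s2b rose by 6.53 and Csn2 by 1.04. Capitals mark it in both, on the minus and the plus strand of GRCr8.
Csn1s2b promoter, chr14:20545619-20545868: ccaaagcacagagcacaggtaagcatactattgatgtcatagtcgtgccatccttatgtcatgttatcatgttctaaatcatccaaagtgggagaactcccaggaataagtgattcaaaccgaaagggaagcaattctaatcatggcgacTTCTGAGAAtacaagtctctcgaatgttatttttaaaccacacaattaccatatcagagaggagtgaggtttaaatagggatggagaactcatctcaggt
Csn2 promoter, chr14:20601574-20601823: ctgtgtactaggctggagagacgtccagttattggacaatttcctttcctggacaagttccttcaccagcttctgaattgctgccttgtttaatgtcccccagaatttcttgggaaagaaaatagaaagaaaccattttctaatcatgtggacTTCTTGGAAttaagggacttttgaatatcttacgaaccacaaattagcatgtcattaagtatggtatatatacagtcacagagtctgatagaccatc

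Of 35 tested genes of prolactin, STAT and steroid receptor signalling 7 were higher (20%) and 3 lower (8.57%), near the shares of all probes (16.1% and 12.4%). Susd3, a membrane protein known as a target of estrogen receptor, rose from 6.13, 5.12 and 5.04 to 8.59, 8.85 and 8.50 (9.32-fold, adjusted p = 0.000501) and had reached 9.27, 8.96 and 9.09 by d 9. Stat5a and Stat5b, which carry the prolactin signal, were lower by 0.86 and 0.66 (adjusted p = 0.0337 and 0.0152). The Stat5a call was lost without any 1 of d 2 dams 2 and 3 and d 16 dams 1 to 3 (adjusted p up to 0.102), and that of Stat5b without d 16 dam 2 (adjusted p = 0.0542). Prlr, the prolactin receptor, had 2.98, 3.27 and 3.66 on d 2 and 3.09, 3.54 and 3.77 on d 16, which overlap (adjusted p = 0.619), with 1 of 3 d 2 arrays and 2 of 3 d 16 arrays well above background. Cish, a STAT5 target that damps the signal, was at least 2.14-fold higher on d 16.

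Several genes that move minerals and ions into milk rose. Of 27 tested calcium genes 8 were higher (29.6%) and 2 lower (7.41%), with a median of 0.43. Without d 2 dam 2, d 16 dam 2 or d 16 dam 3, 5 were higher. Of 32 carriers 13 were higher (40.6%) and 2 lower (6.25%), with a median of 0.76. Over all probes the shares were 16.1% and 12.4%. Among members well above background on all 6 arrays, 6 of 16 calcium genes and 8 of 19 carriers were higher, and 2 of each lower. Pcp4, a small protein that tunes calmodulin, was 8.71, 8.07 and 8.47 on d 2, 11.70, 11.88 and 12.53 on d 9 and 14.80, 14.75 and 14.39 on d 16. Among named genes well above background on all 6 arrays this rise was second to that of Csn1s2b (Pcp4 75.3-fold, adjusted p = 7.21e-05). Atp2b2, the pump that moves calcium across the apical membrane into milk, rose from 4.45, 4.04 and 4.42 to 6.10, 5.89 and 6.09 (3.30-fold, adjusted p = 0.000644). Pthlh, parathyroid hormone related protein, by which the gland draws calcium from bone, rose by 3.33 (adjusted p = 0.00062), with 1 of 3 d 2 arrays well above background. Slc30a2, the transporter that loads zinc into milk, was not well above background on d 2 and at least 9.26-fold higher on d 16 (adjusted p = 0.000747), at 6.79, 6.42 and 6.89. Fxyd3 and Fxyd2, which regulate the sodium pump, rose 7.72-fold and 7.53-fold (adjusted p = 0.000118 and 0.00149), the latter with 2 of 3 d 2 arrays above background.

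Car6 and Aqp5, both known from salivary glands, went down. They had the largest falls of the calcium list and of the carrier list above, respectively. Car6, a secreted carbonic anhydrase, fell from 7.53, 8.22 and 7.97 to 4.91, 4.60 and 5.12 (8.15-fold, adjusted p = 0.00128). Aqp5, a water channel of the apical membrane, fell from 7.13, 7.06 and 6.71 to 3.53, 4.25 and 3.66 (8.91-fold, adjusted p = 0.000288). Of 22 iron genes 6 were higher (27.3%) and 3 lower (13.6%), against 16.1% and 12.4% of all probes. Among those higher was Ftl1, ferritin light chain, which rose from 13.99, 13.94 and 14.18 to 15.36, 15.72 and 15.61 (2.87-fold, adjusted p = 0.000564).

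Lactose genes moved in both directions. Of 13 tested 4 were higher (30.8%) and 6 lower (46.2%), against 16.1% and 12.4% of all probes. Their median change of -0.17 turned to 0.26 with spike-in scaling. Slc2a1 and B4galt1, the glucose carrier and the galactosyltransferase that works with Lalba, were higher: B4galt1 went from 6.12, 5.56 and 5.34 to 7.43, 7.34 and 6.98 (2.99-fold, adjusted p = 0.00468) and Slc2a1 rose 2.14-fold (adjusted p = 0.00446). Galk1, galactokinase, was lower 3.27-fold (adjusted p = 0.00198), Hk1, hexokinase, 2.16-fold (adjusted p = 0.0134), and Pgm2, which acts on sugar phosphates, 2.13-fold (adjusted p = 0.00153). Ugp2, which makes UDP-glucose, changed by 0.20 and did not pass (adjusted p = 0.501), while of its other probes 1 was 0.62 higher (adjusted p = 0.0466) and 1 did not pass (-0.17). With spike-in scaling B4galt1 alone kept its call among these genes.

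Of 31 tested genes of milk fat synthesis and uptake 4 were higher and 4 lower (12.9% each, near the 16.1% and 12.4% of all probes), with a median of -0.13 that was 0.40 with spike-in scaling. Fasn, fatty acid synthase, had 13.42, 14.03 and 13.86 on d 2 and 13.37, 13.56 and 13.70 on d 16, and Xdh, which organizes the globule membrane, 10.77, 11.32 and 11.13 against 11.23, 11.40 and 11.24. Both overlap between the days (adjusted p = 0.548 and 0.576). Gpat4, which makes the first acylation of glycerol phosphate, rose 2.29-fold (adjusted p = 0.00706) and Cd36, a fatty acid carrier, 2.20-fold (adjusted p = 0.00987). Of 10 membrane genes of the fat globule 6 were higher (60%, against 16.1% of all probes) and 2 lower (20%, against 12.4%). Folr1, the folate receptor, rose from 8.87, 8.46 and 8.67 to 10.06, 9.89 and 10.24 (2.64-fold, adjusted p = 0.00335), and Mfge8, lactadherin, rose 2.07-fold (adjusted p = 0.00672). Muc1, a mucin of the apical membrane, fell by 1.04 (adjusted p = 0.00796). Cholesterol synthesis genes were 3 higher (13.6%) and 4 lower (18.2%) of 22, and the largest rise there was that of Insig1, the sterol-dependent brake of the pathway, 3.78-fold (adjusted p = 0.000608).

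**Figure D3:**
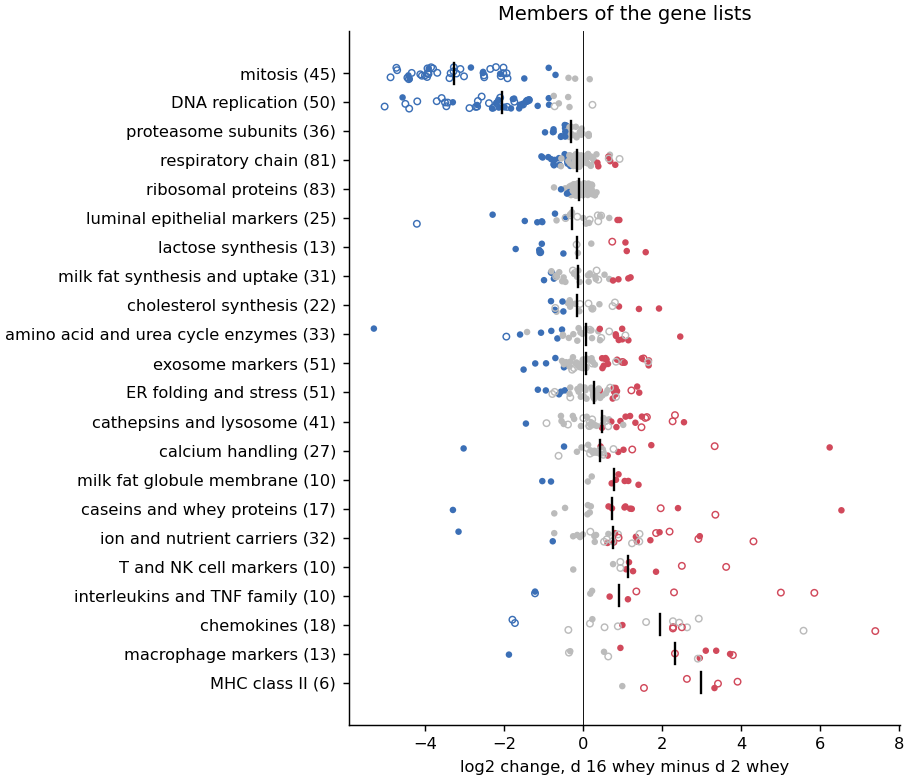
Log2 change from d 2 to d 16 (x axis) of each tested member of 22 gene lists picked from the 42 (rows, number of tested members in brackets). Red points are higher and blue points lower on d 16 at an adjusted p under 0.05, grey points did not pass, open points were not well above background on all 6 arrays, and black bars are medians. Almost all mitosis and DNA replication members are blue, with medians of -3.27 and -2.05, and the lists of immune genes drawn at the bottom lie mostly to the right of 0. Immune lists not drawn include complement (median -0.35), MHC class I (0.21), interferon response (0.33), pattern recognition (0.51), IgA transfer (0.83) and neutrophil markers (1.21).

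Ass1, argininosuccinate synthetase, which makes the precursor of arginine, showed the largest fall among these named genes. It had 9.91, 10.39 and 10.16 on d 2, 6.13, 6.32 and 6.87 on d 9 and 4.43, 5.00 and 5.14 on d 16 (39.3-fold, adjusted p = 0.000118). Of 33 tested genes of amino acid and urea cycle metabolism 8 were higher (24.2%) and 7 lower (21.2%), against 16.1% and 12.4% of all probes. Without d 2 dam 2 or d 16 dam 3, 3 were higher, and without d 16 dam 2, 4 were. Without d 2 dam 2 or 3, 4 were lower. The median change was 0.07, and -0.04 when arrays were scaled to their 75th percentile. Asl, the enzyme after Ass1, changed by -0.25 and did not pass. Phgdh, the first enzyme of serine synthesis, fell from 11.54, 11.46 and 11.54 to 9.94, 9.78 and 10.03 (3.03-fold, adjusted p = 0.0012). Sat1, which acetylates polyamines for export, rose from 7.91, 8.63 and 8.51 to 10.89, 10.71 and 10.81 (5.48-fold, adjusted p = 0.000381).

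Proteasome and respiratory chain subunits were lower by small amounts. Of 36 proteasome subunits 11 were lower and 0 higher (median -0.32), of 81 respiratory chain subunits 16 were lower and 5 higher (median -0.16), and of 83 ribosomal proteins 3 were lower and 0 higher (median -0.10). These are 30.6%, 19.8% and 3.61% lower, against 12.4% of all probes. The lower proteasome subunits ranged from 1 to 14 with 1 array left out, and were 7 or fewer without any 1 of the arrays of d 2 and d 16. The lower respiratory chain subunits ranged from 6 to 20, and were 9 or fewer without any 1 of those arrays other than d 16 dam 1. With spike-in scaling 0 members of the 3 groups passed and their medians were 0.21, 0.38 and 0.50, all under the median of all probes. ER folding genes were 12 higher (23.5%, against 16.1% of all probes) and 5 lower (9.80%, against 12.4%) of 51, with a median of 0.28. With 1 array left out 6 to 13 were higher (6 without d 16 dam 3, 7 without d 2 dam 2 or 3). The lower ones were then 2 to 5 (2 without d 16 dam 3, 3 without d 16 dam 2 or d 2 dam 3). Hspa5, the main chaperone of the ER, rose from 7.54, 7.49 and 7.36 to 8.19, 8.29 and 8.24 (1.71-fold, adjusted p = 0.00336), while Srp68 of the signal recognition particle fell 2.22-fold (adjusted p = 0.00681). Cat, catalase, fell from 6.77, 7.54 and 7.52 to 5.07, 3.46 and 3.63 (9.33-fold, adjusted p = 0.00405), the largest change among the called of 40 antioxidant genes, of which 4 were higher and 4 lower (10% each, below the 16.1% and 12.4% of all probes).

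Epithelial markers of the luminal kind were 2 higher (8%) and 8 lower (32%) of 25, against 16.1% and 12.4% of all probes. Their median of -0.28 became 0.29 with spike-in scaling. Spdef, a transcription factor of secretory cells, fell from 7.60, 7.45 and 7.69 to 2.55, 4.16 and 3.39 (18.5-fold, adjusted p = 0.000461), with 2 of 3 d 16 arrays well above background. Krt19 fell from 10.44, 10.89 and 11.11 to 7.98, 8.85 and 8.73 (4.90-fold, adjusted p = 0.00278), and Krt8 fell 2.24-fold (adjusted p = 0.00607). Elf5 and Epcam overlapped between the days (adjusted p = 0.339 and 0.362). The summed signal of all 25 tested luminal markers was 42531 to 61467 on d 2 and 41621 to 46478 on d 16. Of 13 myoepithelial and basal markers 0 passed in limma, 1 had an unadjusted p under 0.05 and the median change was 0.89. Of 11 stromal and endothelial markers 1 was higher (9.09%, against 16.1% of all probes) and 0 lower, with a median change of 0.03. In all 3 dams 3 of them were higher and 3 lower. The summed signal of the myoepithelial markers was 1397 to 2179 on d 2 and 2799 to 3946 on d 16, and 11 of the 13 were higher in all 3 dams. That of the stromal markers was 3746 to 4714 and 5555 to 8591. Both sums were higher on d 16 without overlap, but a sum follows its brightest members. The part of these markers in other results was not tested.

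Several genes of immune cells rose. Of 13 tested macrophage markers 7 were higher (53.8%) and 1 lower (7.69%), against 16.1% and 12.4% of all probes. Of 6 MHC class II genes 5 were higher (83.3%). Some members entered the test through d 16 alone. Of those well above background on all 6 arrays, 5 of 8 macrophage markers were higher and 1 lower, and 1 of 2 MHC class II genes was higher. Fcer1g, the shared chain of activating Fc receptors, had 5.93, 5.00 and 5.40 on d 2 and 8.61, 9.90 and 8.96 on d 16 (13.1-fold, adjusted p = 0.000822). Fcgr1a, the high-affinity IgG receptor, rose from 5.00, 4.34 and 3.96 to 7.63, 7.94 and 7.82 (10.3-fold, adjusted p = 0.000592). The adaptor Tyrobp and the cytoskeletal protein Aif1 rose 7.72-fold and 8.58-fold (adjusted p = 0.00077 and 0.000725), and Cd68, a lysosomal protein of phagocytes, was at least 3.99-fold higher. In each of these the lowest d 16 value lay above the highest d 2 value, which held for 25.9% of all probes tested. For Fcer1g, Fcgr1a, Tyrobp and Aif1 this was a condition of their choice among the largest rises. Cd14, a receptor for bacterial lipopolysaccharide that epithelium also makes, went the other way, from 7.76, 8.13 and 8.44 to 5.63, 6.82 and 6.25 (3.68-fold, adjusted p = 0.00951).

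RT1-Da, a class II chain, rose from 4.73, 3.96 and 4.11 to 7.95, 7.08 and 7.73 (9.99-fold, adjusted p = 0.00181), and Cd74, the invariant chain, from 3.50, 3.85 and 4.00 to 7.27, 6.94 and 7.37 (adjusted p = 0.000743), with 2 of 3 d 2 arrays well above background. RT1-Bb and RT1-Ba were at least 4.72-fold and 1.60-fold higher. Complement genes moved both ways. C1qb rose from 5.02, 4.79 and 5.43 to 8.86, 8.60 and 8.86 (12.9-fold, adjusted p = 0.00104) and C1qa by 3.31, with 1 of 3 d 2 arrays well above background for C1qa. Both are chains of C1q, which macrophages make. C2, an enzyme of the classical pathway, fell from 7.64, 7.57 and 7.39 to 4.48, 5.81 and 5.10 (5.30-fold, adjusted p = 0.00211). Complement as a list was 4 higher and 4 lower of 11 (36.4% each, against 16.1% and 12.4% of all probes). Coro1a, an actin regulator of leukocytes, rose 7.45-fold (adjusted p = 0.000619), and LOC685157, annotated as similar to a paired immunoglobulin-like receptor, 14.5-fold (adjusted p = 0.000155).

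Some lymphocyte genes were also higher. Of 10 tested T and NK cell markers 6 were higher (60%, against 16.1% of all probes) and 0 lower. The higher ones were 3 without d 2 dam 2, d 16 dam 1 or d 16 dam 3. Of the 6 well above background on all 6 arrays 4 were higher. Cd3d, a chain of the T cell receptor complex, rose from 4.79, 4.27 and 4.11 to 6.55, 5.80 and 6.35 (3.58-fold, adjusted p = 0.00283), Ccl5, a chemokine of T cells, rose from 3.76, 3.70 and 4.55 to 6.67, 6.08 and 6.73, with 2 of 3 d 2 arrays well above background, and Cd6 was at least 3.13-fold higher. Of 10 neutrophil markers 3 were higher (30%, against 16.1% of all probes) and 0 lower. Of the 2 neutrophil markers well above background on all 6 arrays 1 was higher. S100a8 had 4.01, 4.75 and 4.39 on d 2 and 4.36, 7.21 and 5.28 on d 16, which overlap (adjusted p = 0.416, 2 of 3 d 2 arrays well above background), and Mpo, Elane, Ltf and Csf3r were not detected. The macrophage markers Csf1r, Cd163, Itgam and Mrc1 and the T cell markers Cd3e, Cd4, Cd8a and Lck were not detected either. The summed signal of the tested macrophage markers was 802 to 1030 on d 2 and 3089 to 4326 on d 16. That of T and NK markers was 180 to 288 and 471 to 631, and that of neutrophil markers 154 to 184 and 302 to 1347. Of the macrophage markers 9 of 13 were well above background on at least 1 d 2 array, and 13 on d 16. For T and NK markers these were 7 and 10 of 10, and for neutrophil markers 3 and 8 of 10. The sums favour d 16, as they include markers seen on d 16 and not on d 2. In RNA of a fluid, a change in the number of cells that shed it and a change in the RNA from each cannot be told apart, and the part of these cells in the other rises was not tested.

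Of 18 tested chemokines 5 were higher (27.8%) and 2 lower (11.1%). Of 10 interleukin and TNF family genes 6 were higher (60%) and 2 lower (20%), against 16.1% and 12.4% of all probes. Among members well above background on all 6 arrays, 1 of 2 chemokines was higher. Of 5 such interleukin and TNF family genes 2 were higher and 1 lower. The higher chemokines were 3 without d 16 dam 3 and 8 without d 16 dam 1. They were 3 with no filter on dim probes or with Tukey-Kramer tests, and 10 with spike-in scaling. The members that were lower include Tnfsf12, of the TNF family (-1.22, adjusted p = 0.0258), whose call was lost without d 2 dam 1 or 2 or d 16 dam 2 or 3 (adjusted p up to 0.088). Some of the genes that rose did so unevenly between dams. Il1b had 0.90, 2.59 and 0.90 on d 2 and 4.40, 8.93 and 6.07 on d 16, and Il1rn, the antagonist of its receptor, 0.96, 0.92 and 0.99 against 4.81, 9.10 and 6.50. Neither was well above background on any d 2 array, and they were at least 8.03-fold and 10.1-fold higher on d 16 (adjusted p = 0.0138 and 0.00619). A second probe of Il1rn, above background on 1 whey array, did not pass (1.01, adjusted p = 0.253). Ccl3, a chemokine of macrophages, was at least 33.8-fold higher, with no d 2 array well above background, from 1.14, 1.09 and 1.23 to 3.88, 12.71 and 9.04. Dam 2 was highest and dam 1 lowest on d 16 in all 3. The adjusted p of Ccl3, 0.0437, rose above 0.05 when any 1 of d 2 dams 1 to 3, d 9 dam 2 and d 16 dams 2 and 3 was left out, up to 0.116. Gbp2, an interferon-induced GTPase, was at least 4.19-fold higher. Of 28 interferon genes 4 were higher (14.3%, against 16.1% of all probes) and 0 lower.

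**Figure D4:**
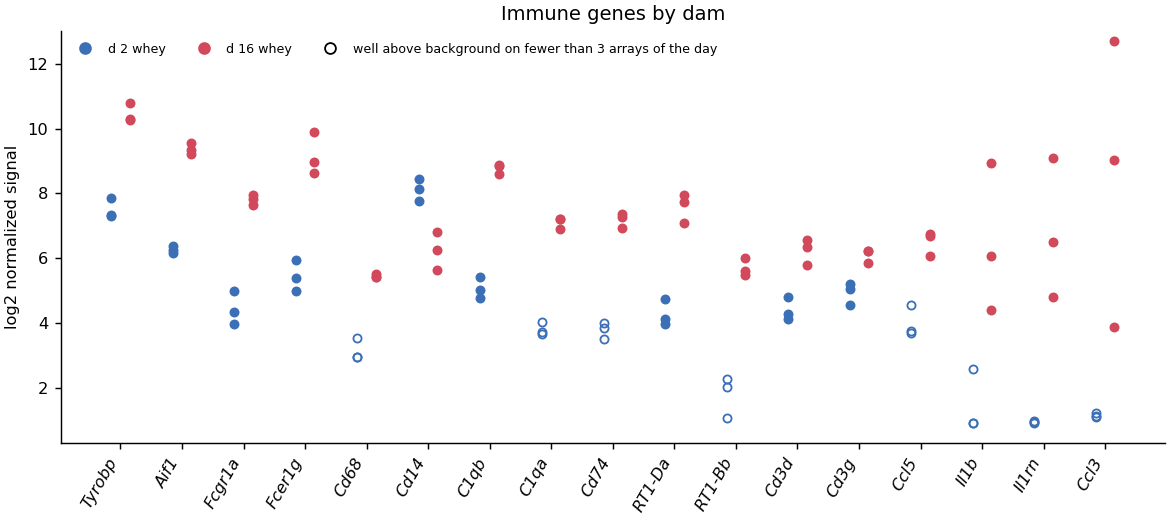
Log2 normalized signal (y axis) of 17 immune genes (x axis), 1 point per dam, blue for d 2 whey and red for d 16 whey. Open points mark genes that were well above background on fewer than 3 arrays of that day. Cd14 is higher on d 2, all others drawn are higher on d 16, and Il1b, Il1rn and Ccl3 spread over more than 4 units between dams on d 16. The genes were picked for the plot, so their directions are no count of immune genes. C2 and Tnfsf12, which were lower on d 16, and S100a8, which overlaps between the days, are not drawn.

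Lysosomal genes were 14 higher and 1 lower of 41 (median 0.47), which is 34.1% higher against 16.1% of all probes. The 14 became 8 without d 16 dam 2 and 7 without d 16 dam 3, and 3 with spike-in scaling. Cst3, cystatin C, a secreted inhibitor of cathepsins, rose from 8.74 ± 0.38 to 11.29 ± 0.31 (mean ± SD, n = 3 dams, 5.85-fold, adjusted p = 0.000964), and Cd63, a tetraspanin of lysosomes and of exosomes, rose from 6.40, 6.06 and 6.25 to 7.64, 7.73 and 7.79 (2.80-fold, adjusted p = 0.003). Ctsh, a cathepsin, fell by 1.45 (adjusted p = 0.00642). Of 51 tested exosome markers 14 were higher (27.5%, against 16.1% of all probes) and 5 lower, and the 14 became 6 without d 16 dam 2 and 5 without d 16 dam 3. Anxa2 and Sdc4, both known from vesicle membranes, rose by 1.66 each (adjusted p = 0.003 and 0.00389), and Ezr, which links membrane to actin, fell by 1.51 (adjusted p = 0.00134). Among growth factors, 7 of 24 tested were higher (29.2%) and 1 lower (4.17%), against 16.1% and 12.4% of all probes. Of the 10 well above background on all 6 arrays 2 were higher and 0 lower. With 1 array left out 3 to 6 were higher (3 without d 2 dam 2 or 3 or d 16 dam 2 or 3, 4 without d 9 dam 2). Egf had 3.21, 2.77 and 3.46 on d 2 and 5.43, 5.23 and 5.40 on d 16 (4.61-fold, adjusted p = 0.000386, 1 of 3 d 2 arrays above background).

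Other genes among the 15 largest rises and the 15 largest falls belong to no list above. Probes named LOC257642 carry the description rRNA promoter binding protein, and the one that rose had 11.79, 10.94 and 10.96 on d 2 and 14.10, 16.07 and 15.33 on d 16 (15.4-fold, adjusted p = 0.0017). Of 3 further probes with that name 1 rose by 3.30 and 2 did not pass (-0.54 and 0.63), so the 4 do not read the same RNA to the same degree. Mslnl, a relative of mesothelin, rose 7.19-fold (adjusted p = 0.0073) and Pllp, plasmolipin, a membrane protein of epithelia and myelin, 6.12-fold (adjusted p = 0.000211). Sh2d5, an adaptor protein, fell from 8.18, 7.90 and 6.99 to 4.62, 3.67 and 3.84 (12.5-fold, adjusted p = 0.000851) and was lower still on d 9, at 3.62, 3.18 and 2.81.

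**Figure D5:**
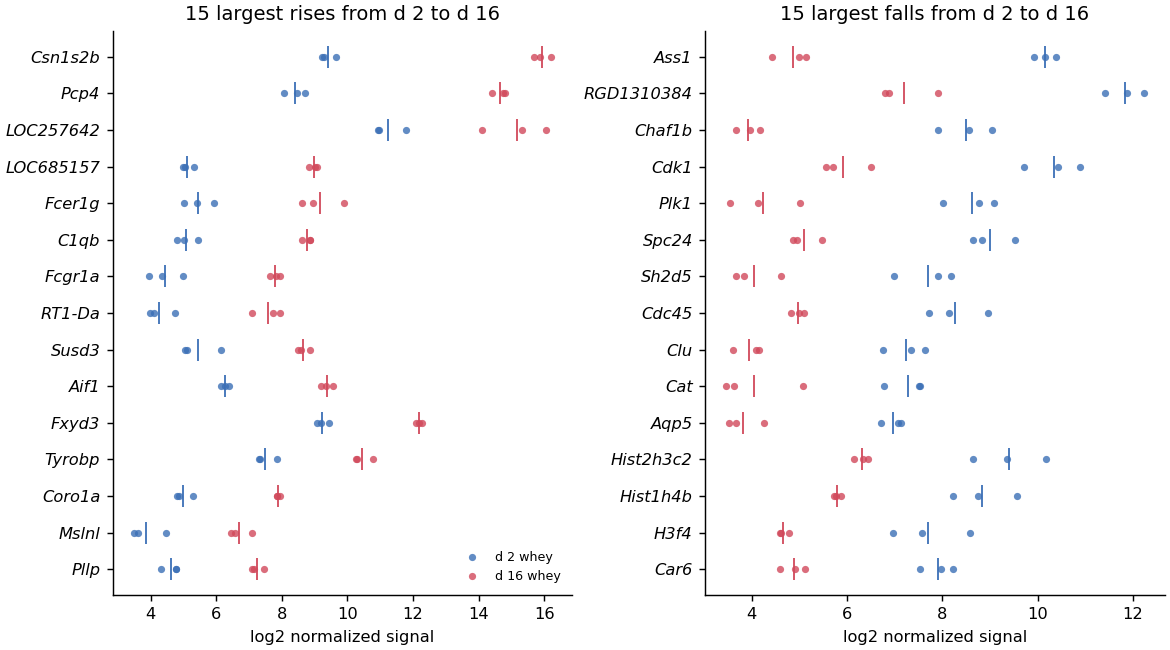
Log2 normalized signal (x axis) of the 15 largest rises (left) and the 15 largest falls (right) among called probes with a gene symbol and both days fully measured, 1 point per dam, blue for d 2 whey and red for d 16 whey, with vertical ticks at the mean of each day. The 2 days do not overlap for any of the 30 genes, which the choice of these genes required and which held for 48.2% of all probes tested.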

How the data were processed

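Whey of 3 dams on d 2, d 9 and d 16 and a serum pool were measured on 1-colour Agilent Whole Rat Genome arrays. The authors scanned them with Agilent Feature Extraction 9.5.3.1, and deposited linear-scale intensity: per the file headers the processed signal has the background subtracted and is not normalized between arrays, and the mean and background signals are as read. The same software set the deposited 0 or 1 flags for outliers, saturation and signal well above background, which are other values. A deposited table of quantile normalized values was not used, because none of its 10 sample columns has a name that matches a label.

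Here log2 processed signal of the 43379 non-control spots was quantile normalized over the 10 arrays, outlier-flagged spots (93 to 121 an array) were left out and spots of a probe averaged. There were 0 saturated spots. Probes were named from the files, updated through RefSeq accessions (17208 of 24440 matched, GRCr8 names). Positions of probes are those of build rn4 in the files, with no annotation of exons or untranslated regions used. Days were compared with limma (version 3.58.1, R 4.3.3, lmFit and eBayes, two-sided) on the 9 whey arrays without a dam term, with Benjamini-Hochberg adjustment over 16845 probes at 0.05. All adjusted p-values come from limma. Where a probe was not well above background on any array of a day, an "at least" fold is given. It sets the mean log2 value of the bright day against a floor for the dim day, which on each array is the dimmest well-detected probe or the probe itself, whichever is brighter. The fit was tested on simulated data.

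Named genes were the 15 largest rises and 15 largest falls among called probes with a symbol, well above background on all 6 arrays and without overlap of the days, plus up to 5 called members per gene list and members that define a list. Each list gene was read by the probe above background on most whey arrays. Of the list genes 60 had probes that differed in call. Asl, Bub1b, Ctsh, Pcna, Tnfsf12 and Ugp2 fall outside this rule and were chosen after their values were seen. The comparison and all 42 lists were chosen with earlier results of these data known, so list counts are descriptions with no test.

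The dam numbers mark the same animals on each day. The deviations of d 2 and d 16 from their day means correlated at 0.12, 0.073 and 0.045 within dams 1 to 3, over probes. Alternatives tried were 75th percentile and spike-in scaling, normalization without serum, normexp, other filters, flagged spots kept, a dam block, slide as a random block, 2 days only, Tukey-Kramer tests and leaving out each array.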

Additional observations from a re-analysis of the deposited data

How the results depend on the processing

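The 30 genes with the largest changes kept their direction and their call in the 360 values from other settings and in the 270 values with 1 array left out. Their choice as the largest called changes of these same arrays favours this. The number of probes changed from d 2 to d 16, 4800 (2704 higher, 2096 lower), became 786 (609 and 177) with spike-in scaling, where limma used 1 variance for all probes, and 2687 (1519 and 1168) with Tukey-Kramer tests. Leaving out 1 array gave 2744 to 4885 probes (1560 to 2665 higher, 1184 to 2220 lower), with 3113 without d 16 dam 2 and 2744 without d 16 dam 3, and without d 2 dam 2 the lower probes were 1305. With the dam as a replicate block 4849 passed, 2684 higher and 2165 lower. The 239 probes from d 9 to d 16 depended far more on the setting: 155 with spike-in scaling, 855 with normexp, 131 with no filter, 530 among probes well above background on all 6 arrays, 618 at a minimum signal of 100, 117 with the replicate block, 677 with slide as a random block, 158 with only 2 days in the fit, 0 with Tukey-Kramer tests, and 22 to 259 with 1 array left out. Tukey-Kramer is the test the methods name for their other measurements. The cause of these differences was not tested. Of 360 called list members 223 kept the call whichever array was left out, 330 with the replicate block and 103 with spike-in scaling. Of 494 list counts under other settings 408 stayed within 1.5 times the value reported and 86 did not. With 1 array left out 272 of 342 list counts stayed within that range and 70 did not, most with fewer calls: the called milk fat genes that were lower became 0 to 5, those of cholesterol synthesis 1 to 4, higher antioxidant genes 1 to 4 and lower ones 3 to 7, higher respiratory chain subunits 3 to 5, and higher genes of cell cycle inhibition 1 to 5. Dim probes limit the rest: 642 probes that passed were not well above background on any d 2 array and 235 on any d 16 array. The 3 arrays a day limit the precision.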
